A study of Macaca mulatta with 10 samples.

Results

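Pulvinar was set directly against Ventral Thalamus in the rhesus monkey, Macaca mulatta. The comparison used the 4 arrays with those titles out of 10 arrays from 5 thalamic nuclei, 2 of Pulvinar and 2 of Ventral Thalamus. The level in Ventral Thalamus was subtracted from the level in Pulvinar within each replicate number, for all 11963 genes measured. Both groups were micro-punches of dorsal thalamus from adult monkeys that had received no treatment. The labels give no genotype, sex, exact age or animal for an array, and they do not say which of the ventral nuclei were punched. Biotin-labelled target from total RNA was hybridised to an Affymetrix array of short oligonucleotide probes designed for human transcripts. The other 6 arrays, from Anterior Thalamus, Centre Median and Medial Thalamus, shared in the estimate of the spread and are given as levels only.

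The pulvinar is a large higher-order nucleus of the primate thalamus, and it exchanges signals with visual and other association areas of the cortex. The ventral nuclei include the motor relays, which receive from the cerebellum and basal ganglia, and the somatosensory relay, which carries touch and body position to the cortex. Thalamic relay neurons are glutamatergic, and in primates the calcium-binding proteins parvalbumin and calbindin are found in different, partly overlapping relay populations. The thalamus of primates also holds GABAergic interneurons, and its relay axons run through white matter made by oligodendrocytes.

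Levels are given as log2(intensity + 1), so that a difference of 1 is a doubling, and every difference is Pulvinar minus Ventral Thalamus. Differences between the replicate numbers touched all nuclei, and the lowest intensity was 11.97 to 12.30 for number 1, whereas it was 9.49 to 9.55 for number 2. The pair of arrays with number 1 also differed in transcripts of the sex chromosomes. XIST, the RNA made from the inactive X chromosome, stood at 9.60 and 10.29 in Pulvinar 1 and 2, against 6.86 and 10.34 in Ventral Thalamus 1 and 2. RPS4Y1, a ribosomal protein gene of the Y chromosome, stood at 7.22 and 7.23 in Pulvinar, against 8.94 and 6.96 in Ventral Thalamus. The arrays of number 2 were alike in both transcripts, and those of number 1 lay apart in opposite directions. The labels do not say whether arrays of 1 number share an animal. With levels this unlike, Pulvinar 1 and Ventral Thalamus 1 are unlikely to hold RNA of the same animal or animals. In number 1 a difference between the nuclei therefore cannot be told apart from a difference between animals. The 3′ minus 5′ signal of the actin control, which is larger where RNA is more degraded or less fully copied, was 0.34 and 1.27 in Pulvinar and 1.22 and 1.64 in Ventral Thalamus. It was lower in Pulvinar within both numbers, and the part of this difference in the results was not tested, but values with it as a covariate are given where they bear on a gene group.

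Both groups carried the transcripts of thalamic relay neurons. TCF7L2, the transcription factor that marks the relay neurons of the thalamus, stood at 12.40 and 13.00 in Pulvinar and 12.38 and 12.76 in Ventral Thalamus. SLC17A6, which loads glutamate into the vesicles of relay cells, stood at 10.59 and 10.86 in Pulvinar and 10.87 and 11.54 in Ventral Thalamus. Both genes were bright in every array. SHOX2, a homeobox factor of relay neurons, stood at 9.003 and 9.44 in Pulvinar against 9.15 and 10.29 in Ventral Thalamus. GBX2, a homeobox factor of the developing thalamus, stood at 5.46 and 5.17 in Pulvinar against 5.12 and 4.87 in Ventral Thalamus, and PRKCD at 6.09 and 5.74 against 6.03 and 5.83, so these 2 markers were dim in both nuclei. LHX9 was not among the genes measured. GAD1, the enzyme that makes GABA, stood at 10.27 and 10.20 in Pulvinar and 9.98 and 10.61 in Ventral Thalamus, and the groups overlapped.

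No gene passed the test of the difference. With the replicate number entered as a block, the limma fit called 0 of 11963 genes (0%) at an adjusted p under 0.05, and the fit without the block also called 0 (0%). The smallest adjusted p was 0.109, shared by 11 genes, with the block. At an unadjusted p under 0.05 the fit with the block held 710 genes (5.93%), 261 higher in Pulvinar (2.18%) and 449 lower (3.75%). The fit without it held 80 (0.669%). Both Pulvinar arrays lay above both Ventral Thalamus arrays for 914 genes (7.64%) and below both for 945 (7.9%). Differences below therefore describe these 4 arrays, and the p-values measure only the spread between arrays, which may be technical.

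The differences measured with replicate 1 and with replicate 2 had little in common over the whole array. They had the same sign in 6603 genes (55.2%), and their correlation across genes, which are not independent replicates, was 0.16. Differences of at least 1.5-fold within both numbers were found for 9 genes higher in Pulvinar (0.0752%) and 20 lower (0.167%). The plot of one number against the other shows a cloud without a clear slope, from which sets of related genes stand out on the lower left. The limma fit gave a median standard error of 0.13 for a difference. On simulated arrays of the same spread it recovered 59 of 100 genes altered by 0.75 and 98 of 100 altered by 1.5, with 3 false calls. Without the block 9 and 65 were recovered. The simulated noise was drawn separately for each gene and array, so it held no array effect shared by many genes. These counts therefore do not show that a change of 1.5 would be called in the real arrays, where the largest difference, 1.79, was not. Of the 36 gene lists described below, none held a gene that passed the test.

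The count of calls was not stable to how the arrays of number 1 were treated. The number 1 arrays were divided by XIST level alone, which put Pulvinar with Centre Median and set the remaining nuclei apart from them. RPS4Y1 stood at 7.22 and 7.65 in the former and at 8.16 to 8.94 in the latter. With that division limma called 18 genes (0.15%), 9 higher (0.0752%) and 9 lower (0.0752%) in Pulvinar. Those higher were CA10, CALB1, CDH8, HPCAL4, KCNA3, NRXN3, PLXNC1, RND3 and SCN2A, and those lower were NEFH, NEFM, PPARGC1A, PVALB, SCG3, SLC24A3, SPP1, STXBP3 and VAMP1. In that fit PLXNC1 differed by 2.26 (SE 0.27), NEFH by −1.91 (SE 0.26) and PVALB by −2.13 (SE 0.24), each wider than with the block by number alone. That fit takes little from the difference between Pulvinar 1 and Ventral Thalamus 1, which fall on opposite sides of the split, so it leans on number 2. With the actin value as a covariate 4 genes were called (0.0334%), CHRDL1 and MPPED2 higher and GPR37 and PCDH8 lower in Pulvinar (0.0167% in each direction).

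**Figure D1:**
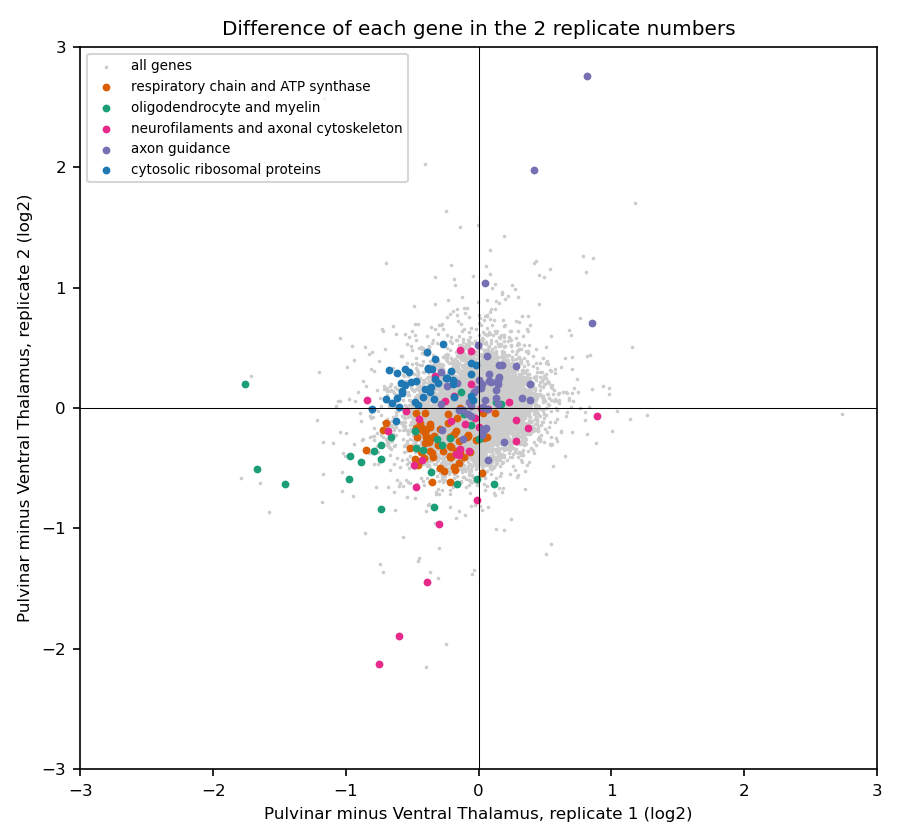
Difference between Pulvinar and Ventral Thalamus on the log2 scale for each gene, replicate 1 on the horizontal axis and replicate 2 on the vertical axis, with all 11963 genes in grey and 5 gene lists in colour. Respiratory chain genes lie mostly in the lower left, with 61 of 66 below 0 in both numbers, and the ribosomal protein genes lie to the left of 0 and, for 40 of 42, above it.

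PLXNC1 and GFAP had the widest gaps among the 8 genes with the smallest p of those higher in Pulvinar, all 8 with adjusted p from limma of 0.109 to 0.211. PLXNC1, the plexin that binds semaphorin 7A, stood at 7.92 and 9.94 in Pulvinar and 7.11 and 7.18 in Ventral Thalamus. The groups did not overlap, but the gap in number 2 was far wider than in number 1. The difference was 1.79 with an unadjusted 95% interval of 1.13 to 2.45 (n = 2 each, limma adjusted p = 0.109), which is 3.45-fold. It lay between 1.12 and 2.45 when 1 of the 4 arrays was left out, and 2 dimmer probe sets of the gene gave 0.54 and 0.25. Medial Thalamus averaged 9.22, between the 2 Pulvinar arrays.

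GFAP, the intermediate filament of astrocytes, stood at 11.25 and 11.70 in Pulvinar and 10.08 and 9.99 in Ventral Thalamus. The 2 arrays of each nucleus were close together and the groups lay over 1 unit apart. The difference was 1.44 with an unadjusted 95% interval of 0.87 to 2.01 (limma adjusted p = 0.114), which is 2.72-fold, while a dimmer probe set gave 0.18. Medial Thalamus, at 11.82, lay above both Pulvinar arrays. The gap was 1.18 in number 1 and 1.71 in number 2, where XIST and RPS4Y1 were alike. In bulk samples such as these, fewer cells of a type and less RNA per cell cannot be told apart.

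Of the remaining genes higher in Pulvinar, EPHA4, a receptor of ephrins that repels growing axons, stood at 8.86 and 8.07 in Pulvinar and 8.001 and 7.36 in Ventral Thalamus, a difference of 0.78 (SE 0.12, limma adjusted p = 0.109). CDH8, a type II cadherin that joins neurons, stood at 8.28 and 8.03 in Pulvinar and 7.75 and 6.87 in Ventral Thalamus, a difference of 0.85 (SE 0.16, limma adjusted p = 0.115). Neither gene's groups overlapped, and a second, dim probe set of CDH8 gave −0.12. CA10, a carbonic anhydrase relative without enzyme activity that binds neurexins, stood at 7.66 and 8.82 in Pulvinar and 6.88 and 7.56 in Ventral Thalamus, a difference of 1.02. B3GALNT1, a glycosyltransferase, stood at 6.95 and 7.36 in Pulvinar and 6.18 and 6.62 in Ventral Thalamus, a difference of 0.75. ST8SIA4, which adds polysialic acid to the adhesion molecule NCAM, was dim in both nuclei. It stood at 5.62 and 5.33 in Pulvinar and 5.25 and 4.56 in Ventral Thalamus, a difference of 0.57. For B3GALNT1 the gap was nearly the same in both numbers, at 0.76 and 0.74, while a dimmer probe set gave 0.19.

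KLF13, a zinc finger transcription factor, was the 1 gene of these 8 whose groups overlapped. It stood at 6.99 and 8.01 in Pulvinar and 5.83 and 7.50 in Ventral Thalamus, a difference of 0.83. For KLF13 all 3 other nuclei lay nearer to Ventral Thalamus. For 4 of the 8 genes, PLXNC1, B3GALNT1, CDH8 and ST8SIA4, all 3 other nuclei lay nearer to Pulvinar, though in part by little. For PLXNC1, Anterior Thalamus (8.07) and Centre Median (8.08) lay about midway between the means of Pulvinar (8.93) and Ventral Thalamus (7.15). For CDH8, Centre Median (7.80) lay about midway between means of 8.16 and 7.31.

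**Figure D2:**
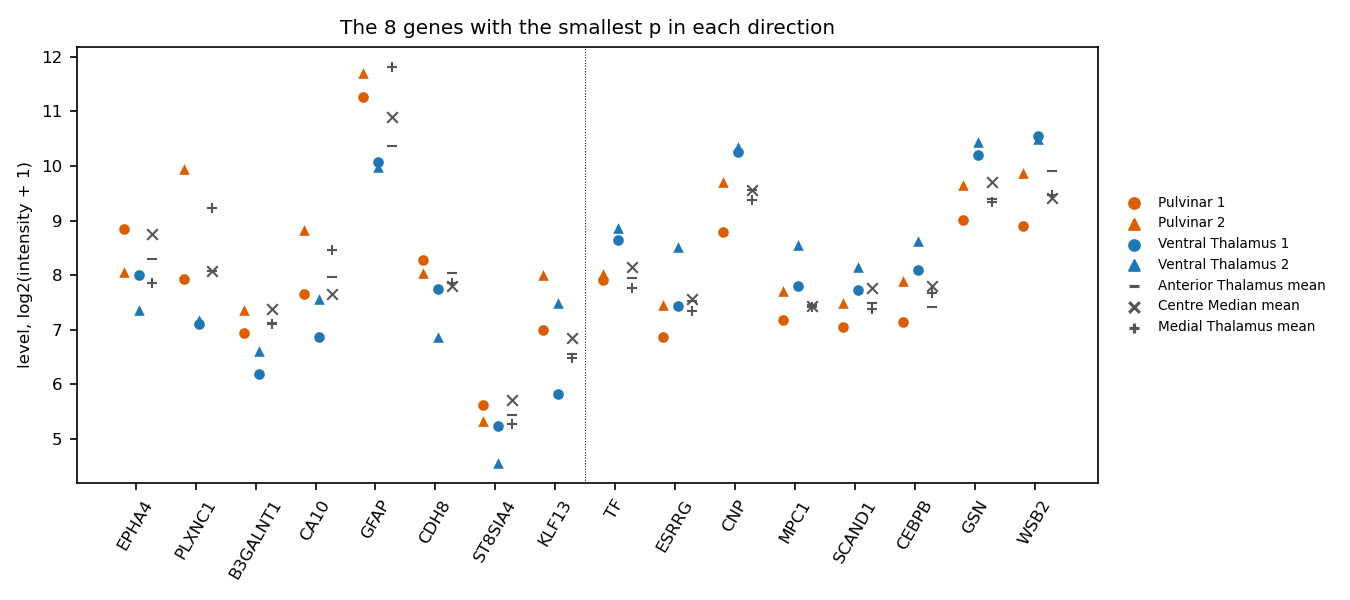
Level of the 8 genes higher and the 8 genes lower in Pulvinar with the smallest p, in log2(intensity + 1), with each Pulvinar array (orange) left of each Ventral Thalamus array (blue) and the means of the other 3 nuclei in grey. The groups do not overlap for 7 of 8 genes in each direction, beside 7.64% of all genes higher and 7.9% lower. The genes were picked by small p on these same arrays, which favours groups without overlap. For 7 of the 8 lower genes the grey means of all 3 other nuclei lie nearer to Pulvinar.

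The 8 genes lower in Pulvinar with the smallest p had adjusted p of 0.109 to 0.115 from limma, and 2 of them belong to myelin-forming cells. TF, the iron carrier transferrin, which oligodendrocytes make in the brain, stood at 7.90 and 8.03 in Pulvinar and 8.64 and 8.87 in Ventral Thalamus. Its gap was nearly as wide in either number. In the limma fit it had the smallest p of all genes, with a difference of −0.79, an unadjusted 95% interval of −1.05 to −0.53 and an adjusted p of 0.109. A second probe set of TF gave −0.97, and 2 others gave −0.13 and −0.05. CNP, an enzyme of myelin-forming membranes, stood at 8.80 and 9.71 in Pulvinar and 10.26 and 10.34 in Ventral Thalamus, a difference of −1.05 with an unadjusted 95% interval of −1.45 to −0.65 (limma adjusted p = 0.109). Both Pulvinar arrays lay below both Ventral Thalamus arrays for either gene.

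Of the remaining genes lower in Pulvinar, ESRRG, an orphan nuclear receptor that activates genes of oxidative metabolism, stood at 6.86 and 7.45 in Pulvinar and 7.43 and 8.52 in Ventral Thalamus, a difference of −0.82 with overlap of the groups, and a second probe set gave −0.64. MPC1, a subunit of the carrier that takes pyruvate into mitochondria, stood at 7.18 and 7.71 in Pulvinar and 7.81 and 8.55 in Ventral Thalamus, a difference of −0.74. GSN, the actin-severing protein gelsolin, stood at 9.01 and 9.65 in Pulvinar and 10.19 and 10.43 in Ventral Thalamus, a difference of −0.98, with 0.13 from a dimmer probe set. CEBPB, a leucine zipper transcription factor, differed by −0.84, SCAND1, a small SCAN domain protein, by −0.67, and WSB2, a SOCS box protein, by −1.13. For 7 of these 8 genes all 3 other nuclei lay nearer to Pulvinar than to Ventral Thalamus, SCAND1 being the exception.

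Genes of oligodendrocytes and myelin lay lower in Pulvinar as a group, although none passed the test. Of 35 genes in the list 29 were measured, and 27 of the 29 lay lower in Pulvinar, beside 49.5% of all genes. The median difference was −0.40, at −0.38 in number 1 and −0.33 in number 2, beside 0.00 over all genes. Both Pulvinar arrays lay below both Ventral Thalamus arrays for 16 of the 29 (7.9% of all genes), and 17 had an unadjusted p under 0.05 (3.75% of all genes). The mean level of the 29 genes was 7.73 and 8.16 in Pulvinar and 8.24 and 8.49 in Ventral Thalamus, without overlap.

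Members with different roles in the sheath took part. MOBP, a small basic protein of compact myelin, stood at 9.89 and 11.22 in Pulvinar and 11.56 and 11.74 in Ventral Thalamus, a difference of −1.09 (SE 0.28, limma adjusted p = 0.432). MBP, the main basic protein that compacts the sheath, stood at 12.43 and 13.12 in Pulvinar and 13.17 and 13.55 in Ventral Thalamus, a difference of −0.58 (SE 0.21, limma adjusted p = 0.728). MAG, the adhesion protein of the innermost myelin wrap, stood at 8.24 and 8.43 in Pulvinar and 9.13 and 8.88 in Ventral Thalamus, a difference of −0.67, while its second probe set gave 0.03. No groups overlapped in these genes. The transcription factor SOX10, which sets the fate of the lineage, stood at 8.43 and 8.42 in Pulvinar and 8.70 and 8.72 in Ventral Thalamus, a difference of −0.29. The 2 genes above 0 were ERBB3, a neuregulin receptor, at 0.09 and CNTN2, a contactin of the region beside the node, at 0.10. SOX10, ERBB3 and CNTN2 were picked after their values were seen. With the actin value as a covariate the list's median was −0.38, and leaving out any 1 of the 4 arrays gave −0.41 to −0.36.

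The respiratory chain and ATP synthase, which make most of a neuron's ATP in the inner mitochondrial membrane, lay lower in Pulvinar in nearly every measured subunit, again with none past the test. Of 80 genes 66 were measured, and 65 of them lay lower in Pulvinar, 61 of them within both replicate numbers. The median difference was −0.30, at −0.29 in number 1 and −0.26 in number 2. The groups did not overlap for 19 of the 66, all lower (7.9% of all genes), and 22 had an unadjusted p under 0.05, all lower (3.75% of all genes). Bright genes as a whole leaned the same way, since 62.6% of the 2991 genes with the highest mean level and 69.2% of the 1197 highest lay lower in Pulvinar, with medians of −0.05 and −0.10. The mean level of the 66 genes was 8.65 and 9.23 in Pulvinar and 8.94 and 9.51 in Ventral Thalamus, which overlapped between the numbers but kept nearly the same gap within each.

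Every complex shared in it. All 28 measured subunits of complex I, which takes electrons from NADH, lay lower by the probe set used, with a median of −0.26. A dimmer probe set of NDUFA6, counted here at −0.39, gave 0.30 and lay above 0 in both numbers. All 11 of complexes II and III with cytochrome c lay lower (median −0.31), as did 11 of 12 of complex IV, the cytochrome oxidase (median −0.30), and all 15 of the ATP synthase (median −0.31). The exception, COX7A2L, a factor for joining complexes into larger ones, stood at 0.04.

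COX7A2 and COX5A, subunits of cytochrome oxidase, had the 2 widest gaps in that complex. COX7A2 stood at 8.88 and 10.13 in Pulvinar and 9.73 and 10.48 in Ventral Thalamus, a difference of −0.60 (SE 0.15, limma adjusted p = 0.432). COX5A stood at 10.17 and 10.32 in Pulvinar and 10.52 and 10.93 in Ventral Thalamus, a difference of −0.48 (SE 0.16, limma adjusted p = 0.654). The groups overlapped for COX7A2 and did not for COX5A. SDHC, a membrane anchor of complex II, stood at 8.32 and 8.56 in Pulvinar and 8.83 and 8.89 in Ventral Thalamus, a difference of −0.42. ATP5PB, a stalk subunit of the ATP synthase, stood at 9.49 and 9.75 in Pulvinar and 9.90 and 10.16 in Ventral Thalamus, a difference of −0.41 in either number. With the actin value as a covariate the median of the 66 genes was −0.33.

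Fuel pathways leaned the same way by smaller amounts. In the citrate cycle list 18 of 19 measured genes lay lower in Pulvinar (median −0.22), and in glycolysis and lactate 17 of 19 (median −0.11, at −0.16 in number 1 and −0.18 in number 2). Of all genes 49.5% lay lower, and of the 1197 brightest 69.2%. The median of those bright genes was −0.10, at −0.14 in number 1 and −0.06 in number 2, so the glycolysis median was near theirs. PFKP, the platelet form of phosphofructokinase, stood at 8.31 and 8.19 in Pulvinar and 8.80 and 8.94 in Ventral Thalamus, a difference of −0.61 (SE 0.14, limma adjusted p = 0.349). Among 17 regulators of mitochondrial biogenesis 9 lay lower, with a median of −0.02. PPARGC1A, the coactivator that drives mitochondrial genes together with ESRRG and ESRRA, stood at 6.48 and 7.38 in Pulvinar and 6.78 and 8.54 in Ventral Thalamus, a difference of −0.73 (limma adjusted p = 0.476). ESRRA, its other partner receptor, stood at 8.32 and 8.24 in Pulvinar and 8.57 and 8.72 in Ventral Thalamus, a difference of −0.37. So ESRRG, PPARGC1A and ESRRA each lay lower within both numbers, whereas the list that holds them was centred near 0.

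Ribosomal protein genes, which are also among the brightest on the array, did not repeat between the numbers. All 42 measured genes lay lower in Pulvinar in number 1, with a median of −0.38, and 40 of 42 lay higher in number 2, with a median of 0.21. The 2 that stayed below 0 in number 2 were RPL29 and RPS9. Their mean level was 10.06 and 11.15 in Pulvinar and 10.46 and 10.95 in Ventral Thalamus, so Pulvinar held both the lowest and the highest array. Across the same arrays 22 of 29 myelin genes and 61 of 66 respiratory chain genes lay lower in both numbers. The part of brightness or of single arrays in any of these lists was not tested.

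**Figure D3:**
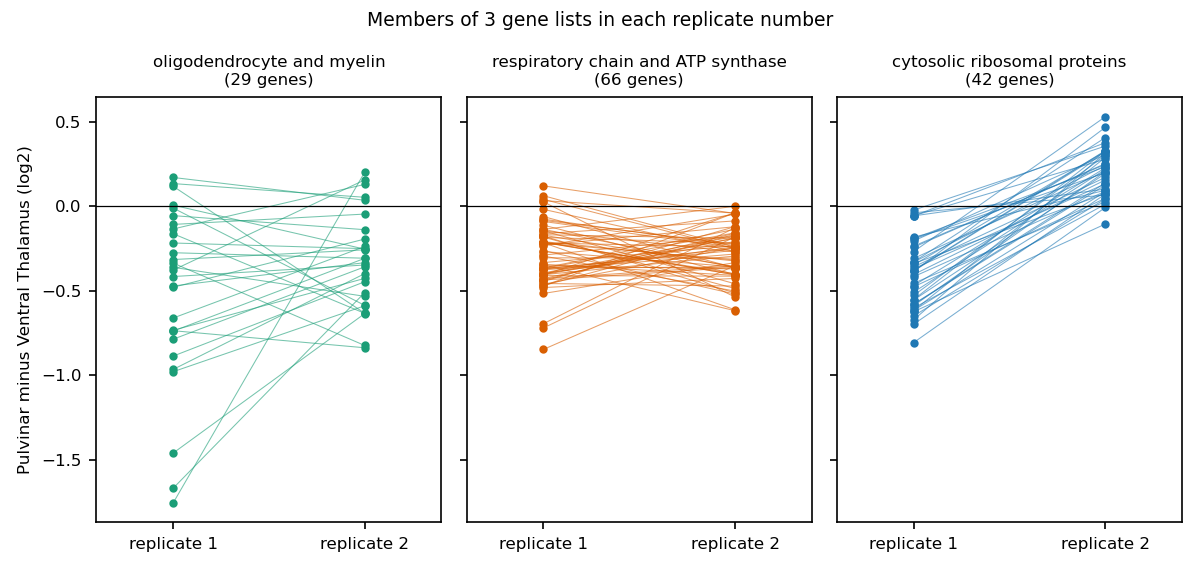
Difference between Pulvinar and Ventral Thalamus on the log2 scale in replicate 1 and replicate 2, with 1 line per gene, for the myelin list, the respiratory chain with ATP synthase, and the cytosolic ribosomal proteins. Medians are −0.38 and −0.33 for myelin and −0.29 and −0.26 for the respiratory chain, while those of the ribosomal proteins are −0.38 and 0.21.

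Neurofilament subunits, the fibres that fill and widen large axons, were among the genes with the widest gaps lower in Pulvinar. NEFH, the heavy subunit, stood at 10.21 and 9.99 in Pulvinar and 10.96 and 12.12 in Ventral Thalamus, a difference of −1.44 with an unadjusted 95% interval of −2.08 to −0.80 (limma adjusted p = 0.211). This was the most negative difference of the 11963, and a second probe set gave −1.08. NEFM, the medium subunit, stood at 10.38 and 10.07 in Pulvinar and 10.98 and 11.96 in Ventral Thalamus, a difference of −1.25 (SE 0.26, limma adjusted p = 0.235). NEFL, the light subunit, stood at 11.62 and 11.14 in Pulvinar and 12.004 and 12.58 in Ventral Thalamus, a difference of −0.91 (SE 0.23, limma adjusted p = 0.422), with −0.62 and −0.65 from 2 more probe sets. INA, the alpha-internexin that assembles with them, stood at 11.24 and 10.69 in Pulvinar and 11.54 and 11.66 in Ventral Thalamus, a difference of −0.63.

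All 4 subunits had groups that did not overlap, with the wider gap in number 2. The means of the other 3 nuclei were 9.32 to 9.98 for NEFH and 9.43 to 10.07 for NEFM, at or below Pulvinar, so Ventral Thalamus stood apart from all of them. Leaving out 1 of the 4 arrays moved the NEFH difference between −2.07 and −0.81. Of the 33 measured genes of the axonal cytoskeleton list that holds them, 23 lay lower in Pulvinar, with a median of −0.15 and 9 without overlap, all lower (7.9% of all genes). The other members, among them tubulins, kinesins and microtubule-associated proteins, all had smaller gaps than these 4.

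VAMP1, a vesicle protein of transmitter release, had a pattern much like that of NEFH. It stood at 7.76 and 7.68 in Pulvinar and 8.15 and 9.83 in Ventral Thalamus, a difference of −1.27 (SE 0.28, limma adjusted p = 0.256), with −0.47 and −0.14 from dimmer probe sets. The other nuclei averaged 7.63 to 7.70, level with Pulvinar. The 33 measured genes of synaptic vesicles and exocytosis as a whole were centred at −0.04, with 19 lower and 14 higher.

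The calcium-binding proteins that are used to tell relay populations apart took different directions. PVALB, parvalbumin, stood at 9.82 and 9.84 in Pulvinar and 10.07 and 11.80 in Ventral Thalamus, a difference of −1.10 with an unadjusted 95% interval of −2.16 to −0.04 (limma adjusted p = 0.825). The groups did not overlap, yet nearly all of the difference came from the second Ventral Thalamus array. CALB2, calretinin, stood at 8.60 and 9.24 in Pulvinar and 8.15 and 8.14 in Ventral Thalamus, a difference of 0.78 (SE 0.20, limma adjusted p = 0.432). It was higher still in the other nuclei, at 9.32 to 10.05. CALB1, calbindin, stood at 6.56 and 9.55 in Pulvinar and 7.26 and 8.35 in Ventral Thalamus, so Pulvinar held both extremes and the sign turned between the numbers. SLC24A3, an exchanger of sodium for calcium and potassium, stood at 10.44 and 9.97 in Pulvinar and 11.18 and 11.27 in Ventral Thalamus, a difference of −1.02 (SE 0.25, limma adjusted p = 0.382), and a second probe set gave −0.93. RYR3, a calcium release channel of internal stores, differed by −0.55 without overlap. The 24 measured calcium-binding proteins and sensors were centred at 0.07, and the 16 pumps, exchangers and store channels at −0.01.

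**Figure D4:**
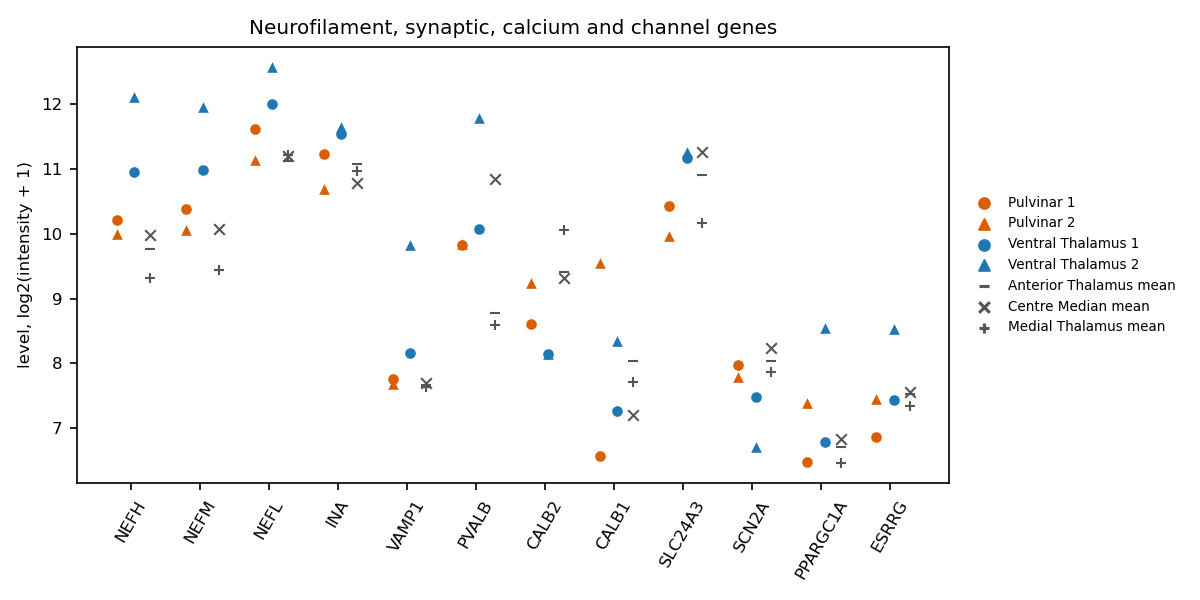
Level in log2(intensity + 1) of neurofilament, synaptic, calcium and channel genes, with each Pulvinar array (orange) left of each Ventral Thalamus array (blue) and the means of the other 3 nuclei in grey. The second Ventral Thalamus array is the highest point for NEFH (12.12), VAMP1 (9.83) and PVALB (11.80), and the CALB1 points of Pulvinar lie at 6.56 and 9.55.

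Sodium channel genes leaned higher in Pulvinar. Of 11 measured genes 9 lay higher (50.5% of all genes), with a median of 0.30, while the medians within number 1 and number 2 were 0.082 and 0.13, with different members at the top in each. SCN2A, a sodium channel of axons and their initial segments, stood at 7.97 and 7.79 in Pulvinar and 7.48 and 6.70 in Ventral Thalamus, a difference of 0.79 (SE 0.17, limma adjusted p = 0.251) without overlap. FGF13 and FGF14, which bind the tails of these channels, differed by 0.49 and 0.40. NFASC, the anchor of the initial segment and node, differed by −0.39, while a dimmer probe set gave −0.04. The 34 potassium and HCN channels were centred at 0.06 and the 16 calcium channels at 0.04. In the potassium group KCNA1, a channel of the region beside the node, was dim. It stood at 6.01 and 5.64 in Pulvinar and 6.20 and 6.30 in Ventral Thalamus (difference −0.42). KCNJ6, an inward rectifier opened by G proteins, stood at 7.97 and 8.56 in Pulvinar against 7.74 and 7.97 in Ventral Thalamus (difference 0.41).

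Axon guidance genes held more members higher than lower in Pulvinar, by small amounts outside a few receptors. Of 47 measured genes 31 lay higher, with a median of 0.09. The groups did not overlap for 10 of the 47, all higher (7.64% of all genes), and 7 had an unadjusted p under 0.05, all higher (2.18% of all genes). Besides PLXNC1 and EPHA4, the widest was EPHA3, another ephrin receptor, which stood at 6.96 and 8.09 in Pulvinar and 6.54 and 6.11 in Ventral Thalamus. Its difference was 1.20 (SE 0.27, limma adjusted p = 0.301), mostly from number 2, and its dimmer probe sets gave 0.34 and 0.01. EFNB3, a membrane-bound ephrin, stood at 8.33 and 8.40 in Pulvinar and 8.27 and 7.36 in Ventral Thalamus, a difference of 0.54. The gap was 0.05 in number 1 and 1.04 in number 2. A second probe set of EFNB3 gave 0.10, at 0.22 in number 1 and −0.02 in number 2. Ligands and receptors were both among the higher genes.

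Cadherins and other adhesion genes were centred at −0.01, with CDH8 and CDH12 at opposite ends. CDH12, also a type II cadherin, stood at 5.81 and 6.63 in Pulvinar and 6.53 and 7.999 in Ventral Thalamus, a difference of −1.04 (SE 0.40, limma adjusted p = 0.769) with overlap. The 38 genes of extracellular matrix and its sulfation were centred at −0.03. HAPLN2, a link protein of the matrix at nodes of myelinated axons, stood at 7.38 and 7.62 in Pulvinar and 7.76 and 8.43 in Ventral Thalamus, a difference of −0.59. HS3ST1, a heparan sulfate sulfotransferase, stood at 6.31 and 7.60 in Pulvinar and 7.08 and 8.26 in Ventral Thalamus, a difference of −0.71, while 2 dimmer probe sets gave 0.10 and 0.07. TNC, the matrix protein tenascin C, was dim. It stood at 5.36 and 5.69 in Pulvinar and 5.17 and 5.10 in Ventral Thalamus, a difference of 0.39, while a second dim probe set gave −0.16.

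Receptors and transporters of glutamate and GABA were close between the nuclei. The ionotropic glutamate receptors had 12 of 14 measured genes higher in Pulvinar with a median of 0.10, the metabotropic receptors and their effectors a median of 0.03 and the GABA receptors 0.04. GRIN2B, an NMDA receptor subunit, stood at 9.59 and 8.45 in Pulvinar and 8.73 and 8.29 in Ventral Thalamus, a difference of 0.50 with overlap. The glutamate transporters were centred at −0.04, with SLC17A6 at −0.48 (SE 0.16, limma adjusted p = 0.667) and SLC1A1, the neuronal uptake carrier, at 0.51 (SE 0.15, limma adjusted p = 0.540). Neither of these transporters overlapped between the groups. A dimmer probe set of SLC1A1 gave 0.10. The 33 receptors of serotonin, acetylcholine, dopamine and noradrenaline were centred at 0.03, ranging over −0.27 to 0.34.

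The 38 neuropeptides and receptors were centred at 0.04, and PDYN and PENK, both precursors of opioid peptides, were higher in both Pulvinar arrays than in either Ventral Thalamus array. PDYN, which yields dynorphins, stood at 7.17 and 7.25 in Pulvinar and 6.88 and 6.33 in Ventral Thalamus, a difference of 0.61 (SE 0.15, limma adjusted p = 0.410). PENK, which yields enkephalins, stood at 6.56 and 6.86 in Pulvinar and 6.24 and 6.10 in Ventral Thalamus, a difference of 0.55 (SE 0.15, limma adjusted p = 0.540). PENK was higher still in Centre Median and Medial Thalamus, at 7.22 and 7.12, whereas PDYN averaged 6.38 to 6.57 in the other nuclei. SST, somatostatin, stood at 7.52 and 7.75 in Pulvinar and 9.10 and 8.61 in Ventral Thalamus, a difference of −1.22 with an unadjusted 95% interval of −2.08 to −0.36 (limma adjusted p = 0.654). It lay between −1.90 and −0.54 when 1 array was left out, and at −0.60 with number 1 divided by XIST level. Among synaptic organisers, centred at −0.05, LRRTM2, a postsynaptic partner of neurexins, differed by 0.81, NRXN3, a neurexin, by 0.63 and NPTX2, a pentraxin that clusters AMPA receptors, by −0.56. NRXN3 stood at 8.66 and 8.97 in Pulvinar and 8.41 and 7.95 in Ventral Thalamus. Leaving out 1 array moved LRRTM2 over 0.34 to 1.28 and NRXN3 over 0.32 to 0.95.

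Transcription factors of the thalamus were centred at 0.09, with 18 of 30 measured genes higher in Pulvinar, 6 in each direction at an unadjusted p under 0.05 (2.18% of all genes higher and 3.75% lower). ETV1, an ETS factor, stood at 7.60 and 8.98 in Pulvinar and 9.39 and 9.56 in Ventral Thalamus, a difference of −1.18 (SE 0.27, limma adjusted p = 0.313) without overlap, and its dimmer probe sets gave −0.13 to −0.17. Centre Median, at 9.92, lay nearer to Ventral Thalamus. ZFHX3, a large homeobox protein, stood at 7.69 and 7.75 in Pulvinar and 7.42 and 6.76 in Ventral Thalamus, a difference of 0.63 (SE 0.20, limma adjusted p = 0.625). It averaged 7.06 to 7.25 in the other nuclei, below both Pulvinar arrays.

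In the Wnt pathway, centred at 0.04, LEF1, the partner of beta-catenin in the nucleus, stood at 8.10 and 9.25 in Pulvinar and 7.97 and 8.22 in Ventral Thalamus, a difference of 0.58 with overlap. Dimmer probe sets of LEF1 gave 0.43 and −0.08. APC, a part of the complex that degrades beta-catenin, differed by −0.55, while dimmer probe sets gave −0.41, 0.03, −0.03 and −0.17. Trophic factors and their receptors were centred at 0.02, and FGF9, a fibroblast growth factor, stood at 8.04 and 7.97 in Pulvinar and 8.37 and 8.93 in Ventral Thalamus, a difference of −0.64 (SE 0.18, limma adjusted p = 0.540). Immediate early genes, which neuronal activity and handling of tissue both induce, were centred at 0.01, and heat shock and stress genes at −0.06. The widest of the immediate early genes, JUNB, differed by −0.37.

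Astrocyte genes did not follow GFAP as a list. Of 25 measured genes 13 lay higher and 12 lower in Pulvinar, with a median of 0.07. The groups did not overlap for 6 genes higher (7.64% of all genes) and 1 lower (7.9%). The mean level of the list was 8.96 and 9.59 in Pulvinar and 8.90 and 9.42 in Ventral Thalamus. AGT, the angiotensin precursor that astrocytes make, stood at 9.87 and 10.01 in Pulvinar and 9.25 and 9.67 in Ventral Thalamus, a difference of 0.48 (SE 0.15, limma adjusted p = 0.625). GLUL, the glutamine synthetase of astrocytes, stood at 10.37 and 11.15 in Pulvinar and 10.67 and 11.57 in Ventral Thalamus, a difference of −0.36. Other probe sets of GLUL gave −0.07 and 0.14, each above 0 in number 1 and below 0 in number 2.

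Lists of markers of other cell types were centred near 0, with single members apart. The microglial list (20 measured genes) was centred at 0.02 and the blood vessel and blood list (20) at −0.04, with mean levels of 7.19 and 7.11 in Pulvinar and 7.26 and 7.18 in Ventral Thalamus for the second. The GABAergic list (12) was centred at −0.05, with 5 genes lower in number 1 and 10 lower in number 2. The list of choroid plexus, ependyma and meninges had 10 of 13 genes higher in Pulvinar and a median of 0.06. Its defining gene TTR, transthyretin, which the choroid plexus secretes, stood at 8.34 and 8.41 in Pulvinar and 7.53 and 7.28 in Ventral Thalamus. The difference was 0.97 without overlap (SE 0.84, limma adjusted p = 0.979), and TTR averaged 9.91 in Medial Thalamus. The mean level of that list was 7.49 and 7.57 in Pulvinar and 7.40 and 7.34 in Ventral Thalamus, and its part in the other differences was not tested.

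**Figure D5:**
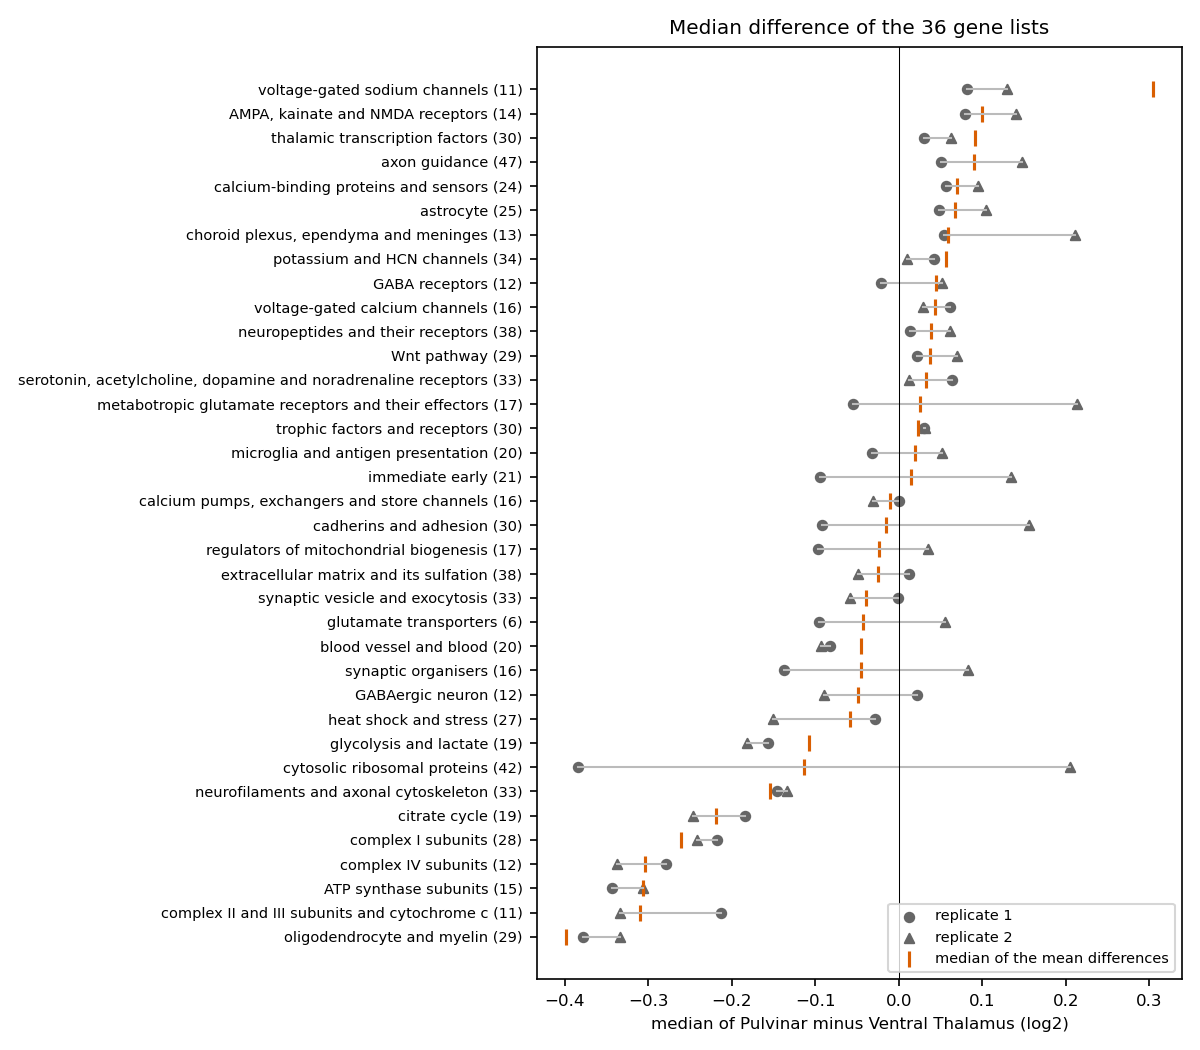
Median difference between Pulvinar and Ventral Thalamus on the log2 scale for each of 36 gene lists (number of measured genes in parentheses), as the median of the mean differences (orange) and within replicate 1 and replicate 2 (grey). For 28 of the 36 lists the median lies within 0.15 of 0, and the lowest is myelin at −0.40 and the highest the sodium channels at 0.30.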

How the data were processed

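The authors deposited normalized intensity values on a linear scale, made with RMA (version not stated) per the submitters' processing notes. RMA corrects background, normalises across arrays and summarises the probes of a probe set. Whether the replicate 1 and 2 arrays were normalised together is not given in the sources used here. No detection calls come with the values, rhesus RNA may bind human probes weakly, and precision is limited by how few arrays there are, so a dim gene was not read as absent. Of 22283 probe sets, 19065 had exactly 1 gene symbol and were not controls; each of 11963 genes was represented by its probe set with the highest 10-array mean, with no filter on low values. No genome build is given, so no coordinates are stated.

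From these values log2(intensity + 1) was fitted with limma 3.58.1 in R 4.3.3, with 1 coefficient per nucleus over all 10 arrays, the replicate number as a block and a variance trend. The block follows the definition of the comparison as a difference within each replicate number. The numbers were also checked for a shift shared by the nuclei: replicate 2 minus replicate 1 correlated across genes at 0.758 to 0.831 in all 10 pairs of nuclei. Any shift common to all arrays of a number gives such a correlation, so it cannot show that arrays of 1 number share an animal. The fit had 4 residual and 8.66 prior degrees of freedom. Benjamini-Hochberg adjustment covered all genes, and a call needed an adjusted p under 0.05. The fits with and without the block over all 10 arrays were tested on simulated data. Figures were drawn with Python 3.11.15 and matplotlib 3.10.9.

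Genes were named by rule: called genes with the same sign in both numbers by size, filled up to 8 in each direction by the smallest p, up to 4 genes of each of the 36 lists by the smallest p, and the markers TCF7L2, SLC17A6, GAD1, CALB1, CALB2, PVALB, GFAP, MBP, PPARGC1A and ESRRG. Relay markers SHOX2, GBX2 and PRKCD came from a marker list. The comparison and the lists were chosen with earlier results of these data known. Other settings tried were no block, only the 4 arrays, another pseudocount, filters, quantile normalization, means over probe sets and a fit without the trend. Further settings were the actin value as a covariate, the number 1 arrays divided by XIST level, and leaving out each array.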

Additional observations from a re-analysis of the deposited data

How the results depend on the processing

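The count of 0 called genes was the same without the replicate block, on the 4 arrays alone with or without it, with other pseudocounts, filters, quantile normalization, means over probe sets and no variance trend. It was 4 with the actin value as a covariate (CHRDL1, GPR37, MPPED2 and PCDH8) and 18 with number 1 divided by XIST level. Leaving out 1 array gave 0 to 9 calls, with 2 without Pulvinar 1 (PLXNC1 and VAMP1), 5 without Pulvinar 2 (CNP, ETV1, GRB14, MOBP and WSB2), 9 without Ventral Thalamus 1 (EPHA3, GFAP, LY6H, NEFH, NTS, PLXNC1, SMYD2, SNX7 and VAMP1) and 0 without Ventral Thalamus 2 or any of the other 6. The number of genes at an unadjusted p under 0.05 was 80 with no replicate block, 36 with no block on the 4 arrays, 465 among the brighter 5981 genes, and 474 to 833 when 1 array was left out. Leaving out 1 array moved the difference by over 1.5 times for 56 of the 87 named genes. Turns of sign within replicate 1 or 2 alone, such as CALB1 at −0.70 and GAD1 at 0.30 in number 1, were not counted. Of 2064 differences of named genes under other settings, each number alone included, 17 further ones turned sign. They belonged to GAD1 (0.088 with quantile normalization, 0.069 as the mean of probe sets, 0.21 with the actin covariate, −0.40 to 0.29 leaving out 1 array), CALB1 (−0.60 with the actin covariate, −0.55 to 1.06 leaving out 1 array), GRB14 (0.16 with the division, −0.97 to 0.54 leaving out 1 array) and, leaving out 1 array, TCF7L2 (−0.030 to 0.30), SPP1 (−0.91 to 0.32), RPS9 (−0.84 to 0.029), MPPED2 (−0.24 to 0.76), LY6H (−0.046 to 1.43) and NTS (−1.29 to 2.71).

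Of 888 list medians under other settings, 37 moved by more than 0.10, the pooled SD between replicate numbers. With the actin covariate the medians were 0.21 for choroid plexus, 0.18 for sodium channels, −0.16 for synaptic vesicles and 0.086 for ribosomal proteins. With that division they were −0.17 for the GABAergic list, −0.41 for ATP synthase, 0.17 for GABA receptors, 0.067 for synaptic organisers, 0.11 for adhesion, 0.13 for immediate early genes and −0.00088 for ribosomal proteins. Quantile normalization gave −0.29 for myelin and 0.031 for ribosomal proteins. The brighter 5981 genes gave 0.23 for choroid plexus and −0.22 for glycolysis, and means over probe sets 0.18 for sodium channels. The replicate 1 arrays alone gave 0.082 for sodium channels, −0.095 for immediate early genes and −0.38 for ribosomal proteins. The replicate 2 arrays alone gave 0.21 for choroid plexus, 0.13 for sodium channels, 0.21 for metabotropic receptors, 0.082 for synaptic organisers, 0.16 for adhesion, 0.13 for immediate early genes and 0.21 for ribosomal proteins. Leaving out 1 array gave −0.051 to 0.090 for astrocytes, 0.051 to 0.18 for choroid plexus, −0.15 to 0.043 for the GABAergic list, −0.32 to −0.18 for complexes II and III, 0.15 to 0.30 for sodium channels, −0.094 to 0.090 for metabotropic receptors, −0.035 to 0.11 for adhesion and −0.32 to 0.12 for ribosomal proteins. The replicate 1 and 2 values alone were added after seeing the data, and the cause of these moves was not tested.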
